A study of Mus musculus with 10 samples.

Results

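The genes described here are 10 genes of the prostaglandin E2 pathway, followed across 5 groups of SmoM2-expressing mouse skin cells: the cyclooxygenases Ptgs1 and Ptgs2, the prostaglandin E synthases Ptges, Ptges2 and Ptges3, the prostaglandin E receptors Ptger1, Ptger2, Ptger3 and Ptger4, and Hpgd. They were taken by gene symbol from the 49671 gene IDs of the deposited table, and each symbol matched 1 row. The list was drawn up with the values of these libraries known, so the members' values and differences below are a description and no p-value is given for them. Where a member is said to pass, its difference lay beyond an adjusted p of 0.05 in the fit over all genes, which here only sorts the members and tests nothing. All 10 passed the filter on low values, a value of at least 10 in 2 libraries, and Ptger2 did so through the 4 Krt14 libraries without Survivin LOF alone.

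Cells marked by SmoM2-YFP were isolated from skin epidermis, and polyA RNA was sequenced to ask what part Survivin, the product of Birc5, plays in basal cell carcinoma formation. Every group carried Rosa-SmoM2, a constitutively active Smoothened that switches on Hedgehog signalling, and every title gives weeks followed by TAM, read here as time after tamoxifen and not as age, which the labels do not give. The 5 groups had 2 libraries each. LOF was Krt14-CREER/Rosa-SmoM2/Survivin LOF at 6 weeks, and GOF was Inv-CREER/Rosa-SmoM2/Krt14rtTA/Survivin-GOF at 8 weeks. Krt14 at 8 weeks and Krt14 at 6 weeks were Krt14-CREER/Rosa-SmoM2, and Inv at 8 weeks was Inv-CREER/Rosa-SmoM2. The Krt14 promoter drives CreER in basal keratinocytes, and the Involucrin promoter is that of a keratinocyte differentiation gene. The labels do not give the layer or stage of the sorted cells. Krt1 and Krt10 were not higher in Inv than in Krt14 at 8 weeks. Krt1 stood at 6619 and 6928 normalized counts against 22262 and 21461, and Krt10 at 11766 and 11958 against 17275 and 15306. GOF carried Krt14rtTA, which the labels do not give for the Inv controls, so the transactivator and Survivin gain cannot be told apart. Both Inv libraries are described as pools.

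Prostaglandin E2 is made from arachidonic acid, which phospholipases release from membranes. The cyclooxygenases Ptgs1, usually constitutive, and Ptgs2, usually inducible, turn arachidonic acid into prostaglandin H2, and the prostaglandin E synthases turn that into prostaglandin E2. The product acts on keratinocytes and other skin cells through the receptors EP1 to EP4, encoded by Ptger1 to Ptger4, and is taken up by the transporter Slco2a1 and inactivated by the dehydrogenase Hpgd. In skin the pathway is known for its part in inflammation, wound repair and experimental tumour formation.

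Values are normalized counts, and 3 reads correspond to between 6.76 and 7.80 normalized counts depending on the library. The targeted gene Birc5 stood at 382 and 429 normalized counts in LOF against 961 and 1103 in Krt14 at 6 weeks, and at 7277 and 16384 in GOF against 237 and 265 in Inv. The 10 keratinocyte markers were detected in all groups. Of the mast cell markers, 5 of 6 were at 0 in both libraries of each group. Xist was at 30024 and 59594 in LOF and at 7589 and 56185 in GOF, and between 51 and 194 in the other groups, while the Y-linked Ddx3y was present in all libraries (956 to 3328), so sex makeup and Survivin genotype cannot be told apart. The GOF libraries differed most from each other: the 5 endothelial markers summed to 286 in GOF library 1 and 1020 in GOF library 2, against 252 to 283 in Inv. In bulk RNA, fewer cells of a type and less RNA per cell cannot be told apart.

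In LOF, set against Krt14 at 6 weeks, both cyclooxygenases, Ptges, Ptges3 and Ptger2 were lower past the threshold, and Ptger3, Ptger4 and Hpgd were higher. That is 5 of 10 members lower and 3 higher, in a comparison in which 11.4% of all 21995 genes tested were lower and 19.5% higher (30.9% in either direction). The members' median log2 difference was -0.52, against 0.16 over all genes. With Survivin gain in the Inv background, GOF against Inv, Ptges, Ptger1 and Hpgd were higher and Ptges3 was lower: 3 and 1 of 10, beside 6.87% higher and 8.4% lower among all genes (15.3% in all). The median of the members was 0.01 on the log2 scale, against -0.01 over all genes. In Krt14 at 8 weeks against Inv at 8 weeks, the 2 cyclooxygenases and Ptges were higher and Ptger3 was lower, beside 8.18% higher and 11.4% lower among all genes (19.6% in all), with medians of 0.23 for the members and -0.10 for all genes. Because the members were chosen with these values known, nothing is read from these counts. Scaling matters to the directions over all genes: 63.1% of the genes called in LOF were higher, but 49.0% after rescaling by the median of ratios and 50.9% after quantile normalization, while no member called in any comparison changed sign under either. With the Xist level as a covariate, added after the data were seen, Ptgs2, Ptges and Ptger4 passed in LOF, and no member passed in GOF against Inv. Xist did not overlap between LOF and Krt14 at 6 weeks, and the covariate rests mostly on the GOF libraries. It therefore cannot separate sex makeup from Survivin loss.

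**Figure D1:**
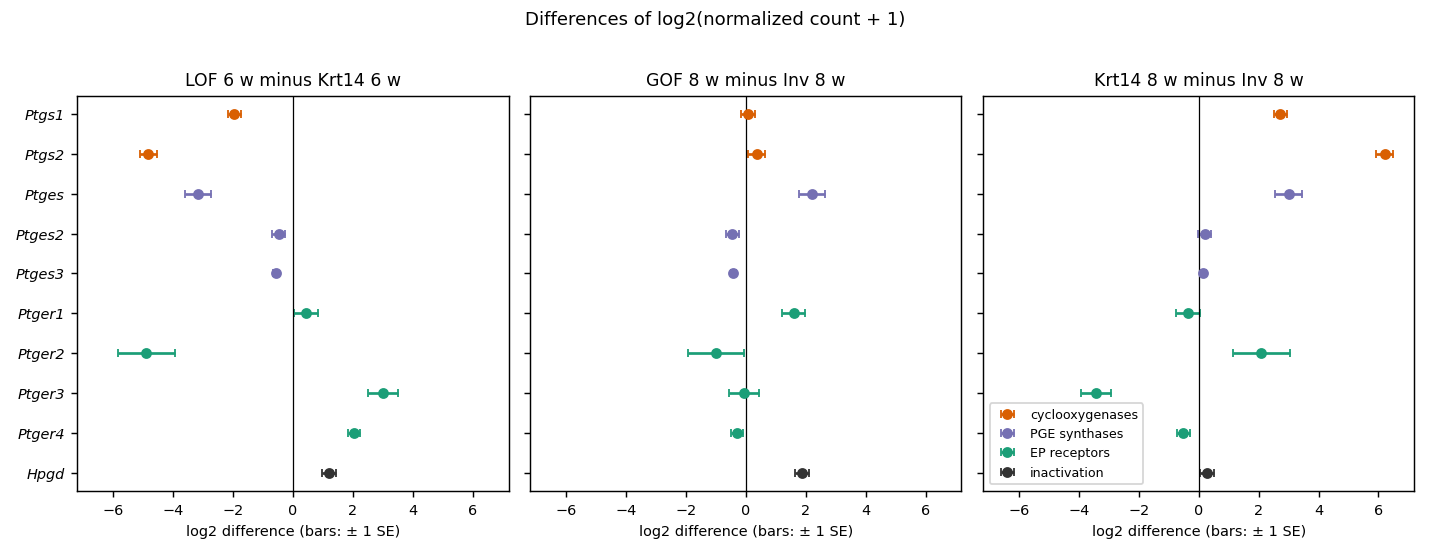
Log2 differences of log2(normalized count + 1) for the 10 genes in 3 comparisons, with bars of 1 standard error on each side and colours by role. Ptgs2 lies at -4.84 in LOF minus Krt14 at 6 weeks, at 0.36 in GOF minus Inv and at 6.21 in Krt14 minus Inv at 8 weeks.

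Ptgs2 had the widest range of the members with a mean of at least 50. Ptgs2 (chromosome 1, 150100031 to 150108227, plus strand, GRCm38) stood at 70 and 140 normalized counts in LOF against 2558 and 3213 in Krt14 at 6 weeks. The groups did not overlap, and the mean was 27.5-fold lower in LOF (105 ± 49.5 against 2885.5 ± 463, SD, n = 2 each). The log2 difference was -4.84 with a standard error (SE) of 0.29. The 8-week Krt14 libraries had 2115 and 2076, against 30 and 25 in Inv. The Krt14 mean was 76.2-fold above the Inv mean (log2 difference 6.21, SE 0.29). Both Krt14 groups were thus at or above 2076, and the other 3 groups at or below 140. GOF stood at 32 and 39 normalized counts, which is 59.0-fold below Krt14 at 8 weeks (log2 difference -5.85, SE 0.29). Against Inv the GOF difference was 0.36 with an SE of 0.29, little more than its own error, although the libraries of these 2 groups did not overlap. Between Krt14 at 8 and at 6 weeks it was -0.45 (SE 0.29). LOF, although of the Krt14 driver, lay nearer in level to the Inv groups than to the Krt14 groups.

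Ptgs1 had the same order of groups with a smaller range. Ptgs1 (chromosome 2, 36230426 to 36252272, plus strand) stood at 194 and 140 normalized counts in LOF against 552 and 755 in Krt14 at 6 weeks, a 3.91-fold lower mean (log2 difference -1.96, SE 0.22). The Krt14 libraries at 8 weeks were at 590 and 651, against 103 and 84 in Inv, 6.64-fold higher (log2 difference 2.72, SE 0.22). All 4 Krt14 libraries without Survivin LOF lay above all 6 others. GOF stood at 97 and 99 normalized counts, inside the range of its Inv controls (log2 difference 0.07, SE 0.22), and 6.33-fold below Krt14 at 8 weeks. A transcript of unverified status on the opposite strand, Gm43621, shares 148 exonic bases with Ptgs1 and was at 25 and 19 in LOF against 115 and 168 in Krt14 at 6 weeks, and without a strand setting reads of the shared bases cannot be told apart. No annotated gene overlaps Ptgs2.

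Per kilobase of exon, which allows the 2 genes to be compared, Ptgs2 made up most of the cyclooxygenase signal only in the Krt14 groups without Survivin LOF. Its share of the summed Ptgs1 and Ptgs2 values per kilobase was 23.4% and 45.9% in the LOF libraries against 79.7% and 78.3% in Krt14 at 6 weeks. It was 75.2% and 73.0% in Krt14 at 8 weeks, against 19.8% and 20.2% in Inv. The GOF libraries gave 21.9% and 25.0%, close to Inv. The 2 genes together reached 65.9 ± 0.976 normalized counts per kilobase in LOF (mean ± SD, n = 2) against 798 ± 138 in Krt14 at 6 weeks, and 617 ± 5.08 in Krt14 at 8 weeks against 30.1 ± 4.23 in Inv. With the longest transcript in place of all exons, the mean Ptgs2 share was 29.0% in LOF against 74.1% in Krt14 at 6 weeks.

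**Figure D2:**
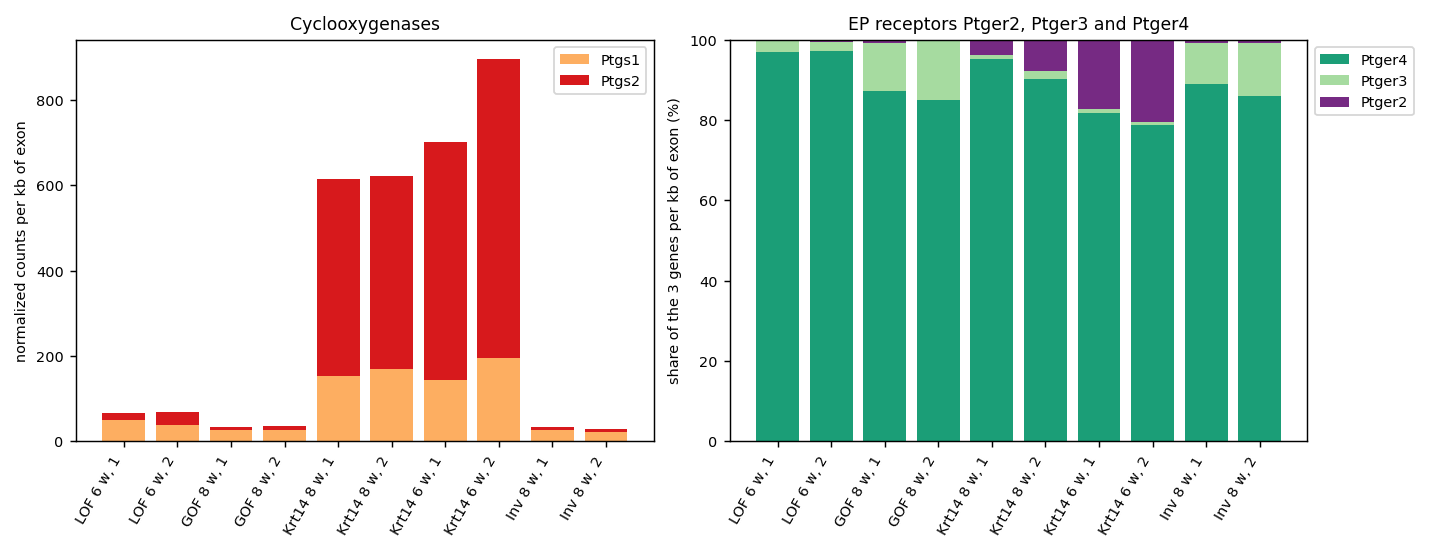
Left, Ptgs1 and Ptgs2 in normalized counts per kilobase of exon, stacked, for each of the 10 libraries; right, the share of Ptger2, Ptger3 and Ptger4 in their sum per kilobase. Ptgs2 fills 73.0% to 79.7% of the bars of the Krt14 libraries without Survivin LOF, and Ptger4 the greater part of the receptor bars in all libraries.

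Because Ptgs1, Ptgs2 and Ptges were all high in the Krt14 groups and low in LOF and Inv, the 250 bases before their start sites in RefSeq (GRCm38.p6) are shown 5′ to 3′ on the gene's strand, at chr2:36230176-36230425 (plus strand) for Ptgs1, chr1:150099781-150100030 (plus strand) for Ptgs2 and chr2:30903298-30903547 (minus strand) for Ptges, whose RefSeq start lies inside the span of the GENCODE gene. Capitals mark matches to the motifs named below.
Ptgs1: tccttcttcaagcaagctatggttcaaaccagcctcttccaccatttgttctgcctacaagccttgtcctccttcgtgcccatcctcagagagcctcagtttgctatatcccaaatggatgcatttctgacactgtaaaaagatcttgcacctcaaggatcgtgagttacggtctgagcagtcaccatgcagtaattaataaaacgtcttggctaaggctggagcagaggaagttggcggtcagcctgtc
Ptgs2: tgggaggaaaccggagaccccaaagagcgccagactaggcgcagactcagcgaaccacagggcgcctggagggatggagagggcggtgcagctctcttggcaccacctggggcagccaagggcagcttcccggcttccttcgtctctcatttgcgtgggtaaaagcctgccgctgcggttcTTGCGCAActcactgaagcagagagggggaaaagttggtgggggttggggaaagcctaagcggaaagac
Ptges: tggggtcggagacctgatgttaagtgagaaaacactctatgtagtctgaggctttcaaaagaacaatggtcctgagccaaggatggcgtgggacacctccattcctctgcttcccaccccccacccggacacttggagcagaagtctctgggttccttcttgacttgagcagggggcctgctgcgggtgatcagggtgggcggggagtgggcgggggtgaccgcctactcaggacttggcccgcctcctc
Their G and C content was 48.0% for Ptgs1, 61.6% for Ptgs2 and 59.6% for Ptges, and the windows held 5, 13 and 8 CG dinucleotides. Searched on both strands were the TATA box TATAAA, the E box CACGTG, the cAMP response element TGACGTCA, the AP-1 motif TGANTCA and the Gli motif GACCACCCA. None of these letters occurs in the 3 windows. Bases after the RefSeq starts were not searched, so absence from a window is not absence from the promoter. Among all 32851 promoter windows of that length, 12.4% hold TATAAA, 6.02% CACGTG, 1.55% TGACGTCA, 6.75% TGANTCA and 0.225% GACCACCCA. The C/EBP motif TTGCGCAA, added after the sequence was read, occurs in the Ptgs2 window 69 to 62 bases before the start, and in 0.164% of all windows. Of the 9 members with a RefSeq promoter, Ptges2 alone held 1 of the 5 motifs searched first, CACGTG, at 77 to 72 bases before its start. A match in letters is a description and not evidence of binding.

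Of the synthases, Ptges, the membrane-bound and inducible prostaglandin E synthase often coupled to Ptgs2, moved with the cyclooxygenases in part. Ptges (chromosome 2, 30889471 to 30929863, minus strand) stood at 45 and 84 normalized counts in LOF against 488 and 654 in Krt14 at 6 weeks, 8.85-fold lower (log2 difference -3.18, SE 0.44). Krt14 at 8 weeks gave 234 and 309, against 51 and 21 in Inv, 7.54-fold higher (log2 difference 3.00, SE 0.44). The 8-week Krt14 level was 2.10-fold below that at 6 weeks, a difference that did not pass (log2 -1.07, SE 0.44). Unlike the cyclooxygenases, Ptges stood higher in GOF than in Inv, at 116 and 208 normalized counts against 51 and 21 (4.50-fold, log2 difference 2.21, SE 0.44). That call was lost without GOF library 2, where the difference was 1.79, and without Inv library 2, where it was 1.59. The call was also lost when only the 2 groups compared were fitted, and with the Xist covariate, where the difference was -0.21. GOF and Krt14 at 8 weeks were not separated past the threshold for Ptges (log2 difference -0.79, SE 0.44).

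The cytosolic synthase and Hsp90 co-chaperone Ptges3, also known as p23, and the membrane-associated synthase Ptges2 varied far less. Ptges3 (chromosome 10, 128058954 to 128077272) stood at 3883 and 4066 normalized counts in LOF against 5931 and 5863 in Krt14 at 6 weeks (log2 difference -0.57, SE 0.08). In GOF it was at 3122 and 2982, against 4030 and 4193 in Inv (log2 difference -0.43, SE 0.08), a call lost without Inv library 2 (-0.40). The call was also lost when only the 2 groups compared were fitted, and with the Xist covariate (-0.31). Ptges3 had the highest level per kilobase of the 10 members in all 5 groups, 1793 ± 58.4 normalized counts per kilobase in LOF, 1377 ± 44.7 in GOF, 2053 ± 50.1 in Krt14 at 8 weeks, 2660 ± 21.7 in Krt14 at 6 weeks and 1855 ± 52.0 in Inv (SD, n = 2). A processed copy, Ptges3-ps, is identical to Ptges3 over 480 aligned bases and had 263 to 491 normalized counts, so the assignment of reads between them is uncertain. Ptges2 (chromosome 2, 32395896 to 32405772) stood at 268 and 215 in LOF against 304 and 365 in Krt14 at 6 weeks and did not pass (log2 difference -0.47, SE 0.22), although it did after rescaling by the median of ratios (-0.61) and after quantile normalization (-0.64). The only other Ptges2 difference past the threshold was GOF against Krt14 at 8 weeks, 215 and 185 against 308 and 322 (-0.66, SE 0.22), and it was lost without GOF library 2 (-0.55) or either Krt14 library at 8 weeks (-0.69 and -0.62).

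**Figure D3:**
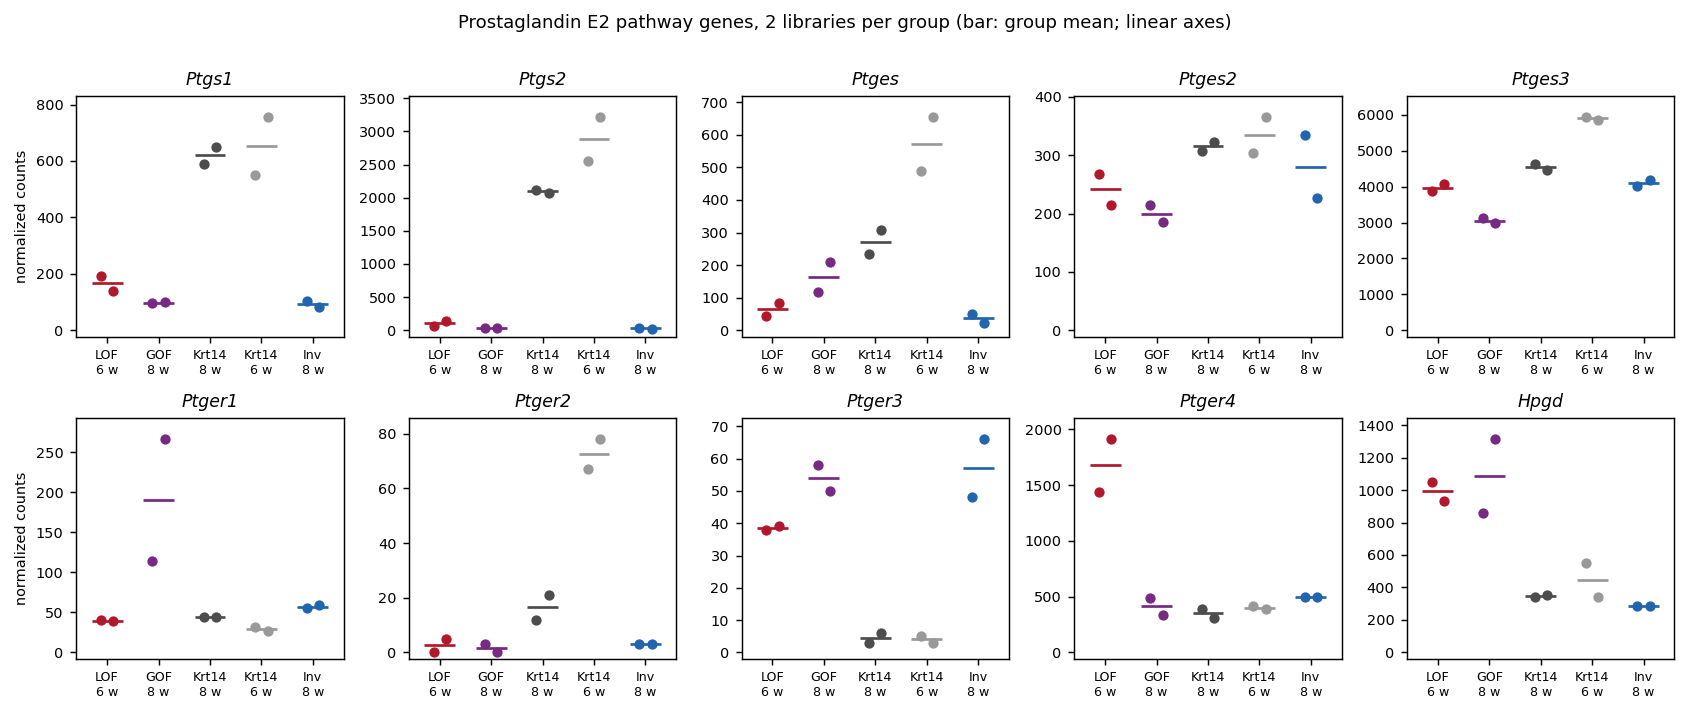
Normalized counts of the 10 genes in each of the 10 libraries, on linear axes that include 0, with a bar at each group mean. Ptgs1 and Ptgs2 are high in the 4 Krt14 libraries without Survivin LOF, Ptger4 in the 2 LOF libraries and Hpgd in the LOF and GOF libraries.

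The EP receptors did not move together. Ptger4, which encodes the Gs-coupled receptor EP4 that raises cAMP (chromosome 15, 5206661 to 5244187, minus strand), stood at 1442 and 1910 normalized counts in LOF against 411 and 388 in Krt14 at 6 weeks. The LOF mean was 4.20-fold higher (1676 ± 331 against 399.5 ± 16.3, SD, n = 2 each, log2 difference 2.05, SE 0.20), and both LOF libraries lay above all 8 others. In the remaining groups Ptger4 kept a narrow range, at 491 and 333 in GOF, 385 and 312 in Krt14 at 8 weeks and 494 and 497 in Inv. Neither GOF against Inv (log2 difference -0.29, SE 0.20) nor Krt14 against Inv at 8 weeks (-0.51, SE 0.20) passed. The first did without GOF library 1 (-0.57), and the second when only the 2 groups compared were fitted and with the Xist covariate (-0.66). Exons on the opposite strand of Ttc33, at 409 and 533 in LOF against 340 and 328, share 82 bases with Ptger4. The pseudogene Gm15937 on that strand shares 1015 bases and had at most 21 normalized counts.

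Ptger3 and Ptger2 were low in all libraries and had opposite patterns. Ptger3, which encodes the Gi-coupled receptor EP3 that lowers cAMP (chromosome 3, 157566892 to 157645888), stood at 38 and 39 normalized counts in LOF against 5 and 3 in Krt14 at 6 weeks. The Krt14 libraries at 6 weeks held 3 reads in all, so the ratio of reads was 10.1 with a 95% counting interval of 3.17 to 51.8. In Krt14 at 8 weeks Ptger3 was at 3 and 6 normalized counts, again 3 reads, against 48 and 66 in Inv, 50 reads, a ratio of 0.0642 (0.0128 to 0.199). GOF, at 58 and 50, overlapped Inv. Ptger3 was therefore near the floor only in the Krt14 groups without Survivin LOF. Ptger2, which encodes the Gs-coupled receptor EP2 (chromosome 14, 44988195 to 45003820), was the reverse, at 0 and 5 normalized counts in LOF against 67 and 78 in Krt14 at 6 weeks. With 2 reads in LOF and 58 in Krt14 at 6 weeks, the ratio of reads was 0.0328 (0.00388 to 0.124). Krt14 at 8 weeks gave 12 and 21 normalized counts against 3 and 3 in Inv, and both GOF libraries were at or under 3. With 13 reads in Krt14 at 8 weeks and 2 in Inv, the ratio was 6.96 (1.58 to 63.5) and the difference did not pass. It did after quantile normalization (log2 3.08) and when only the 2 groups compared were fitted (2.08). An antisense gene, Gm17173, shares 246 of the 5193 exonic bases of Ptger2 and followed it. Gm17173 was at 3 and 5 in LOF against 86 and 135 in Krt14 at 6 weeks. Without a strand setting, reads of the shared bases cannot be told apart. Intervals here cover counting error only.

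Among Ptger2, Ptger3 and Ptger4 per kilobase, Ptger4 held the greater share in all libraries, and the second place changed hands with the group. Ptger2 took 0.163% ± 0.231 in LOF against 18.7% ± 2.30 in Krt14 at 6 weeks (mean share ± SD, n = 2). Ptger3 took 13.5% ± 2.04 in GOF against 11.7% ± 2.28 in Inv. In Krt14 at 8 weeks Ptger3 took 1.45% ± 0.820, below its share in Inv, and Ptger2 took 5.79% ± 2.81.

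Ptger1, which encodes the receptor EP1, had its highest values in GOF. Ptger1 (chromosome 8, 83666678 to 83672753, plus strand) stood at 114 and 266 normalized counts in GOF against 55 and 59 in Inv. The groups did not overlap, and the 2 GOF libraries stood far apart. It stood at 40 and 39 in LOF against 32 and 26 in Krt14 at 6 weeks (log2 difference 0.44, SE 0.39), which did not pass. Whether the counting used strand is not given in the sources used here, and the Ptger1 values are uncertain for that reason. The Ptger1 difference between GOF and Inv (log2 1.60, SE 0.39) was 0.99 and no longer passed without GOF library 2, and did not pass without Inv library 1 (1.55) or Inv library 2 (1.65) either. Nor did it pass when only the 2 groups compared were fitted, or with the Xist covariate (-0.61).

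Hpgd, the NAD-dependent dehydrogenase that inactivates prostaglandin E2, was higher both with Survivin loss and with Survivin gain. Hpgd (chromosome 8, 56294585 to 56321043) stood at 1049 and 934 normalized counts in LOF against 552 and 339 in Krt14 at 6 weeks, 2.23-fold higher (log2 difference 1.19, SE 0.24). In GOF it was at 857 and 1313, against 285 and 287 in Inv, 3.79-fold higher (log2 difference 1.89, SE 0.24). The Krt14 and Inv groups at 8 weeks were close for this gene, at 338 and 355 against 285 and 287 (log2 difference 0.28, SE 0.24). Relative to both cyclooxygenases per kilobase, Hpgd per kilobase was 8.94 ± 0.865 times their sum in LOF against 0.346 ± 0.172 times in Krt14 at 6 weeks, and 19.4 ± 4.96 times in GOF against 5.71 ± 0.831 times in Inv (SD, n = 2). The ratio was below 1 in the 4 Krt14 libraries without Survivin LOF and above 5 in the other 6. Neither call of Hpgd held when only the 2 groups compared were fitted or with the Xist covariate, under which the LOF difference was -0.56.

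Between Krt14 at 8 weeks and at 6 weeks 1 member passed, Ptges3, at 4630 and 4473 normalized counts against 5931 and 5863 (log2 difference -0.37, SE 0.08), beside 4.88% of all genes (0.855% lower and 4.02% higher). Of all genes called there 82.5% were higher, but 53.7% after rescaling by the median of ratios. Without any 1 of the 4 libraries no member passed. In GOF against Krt14 at 8 weeks 5 members were lower (Ptgs1, Ptgs2, Ptges2, Ptges3 and Ptger2) and 3 higher (Ptger1, Ptger3 and Hpgd), beside 12.5% lower and 15.2% higher among all genes (27.7% in all). Of these, Ptger2, with 1 read in GOF and 13 in Krt14 at 8 weeks, was lost without GOF library 2 (-2.08) or without either Krt14 library (-3.46 and -2.70). Both cyclooxygenases stayed below the Krt14 levels in the 2 GOF libraries. These comparisons share libraries with those above, and their values are given side by side only.

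The rest of the eicosanoid pathway was taken from a list of 45 other genes grouped by role, of which 39 passed the filter. These genes too were listed with earlier results of the data known, so their p-values, adjusted over all genes, are no independent evidence. With Survivin LOF, 10 fell and 12 rose, and 17 did not pass, by limma, in a comparison in which 11.4% of all genes were lower and 19.5% higher (median log2 difference 0.41, against 0.16 over all genes). By role, 3 of the 10 release genes tested fell and 4 rose, and all 5 genes of transport and inactivation passed, 2 lower and 3 higher. In the lipoxygenase and leukotriene branch 2 of 13 fell and 3 rose. In arachidonate release, Pla2g4e, of the cytosolic phospholipase A2 family, fell to 25 and 46 normalized counts in LOF, against 834 and 866 in Krt14 at 6 weeks (log2 difference -4.61, SE 0.40, adjusted p = 2.09e-05). The secreted epidermal phospholipase gene Pla2g2f fell to 102 and 70, against 547 and 891 (-3.03, SE 0.28), and Pla2g4f, at 15 and 7 against 60 and 81, fell by 2.64. Other release genes rose, among them the monoacylglycerol lipase gene Mgll, which can free arachidonate from an endocannabinoid, at 999 and 1520 in LOF against 239 and 241 (2.36, SE 0.18). The phospholipase genes Pla2g4b, Pla2g3 and Pla2g12a rose by 1.37, 1.03 and 0.99. The prostaglandin transporter gene Slco2a1 fell to 437 and 781 normalized counts in LOF, against 6184 and 4125 in Krt14 at 6 weeks (8.46-fold, log2 difference -3.11, SE 0.25, adjusted p = 1.41e-05).

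Slco2a1 and the same phospholipases separated the drivers. Of the 39 genes tested, 8 were higher and 5 lower in Krt14 at 8 weeks than in Inv, beside 8.18% higher and 11.4% lower among all genes (median -0.23, against -0.10 over all genes). Slco2a1 stood at 4877 and 5065 normalized counts in Krt14 against 328 and 308 in Inv, 15.6-fold higher (log2 difference 3.96, SE 0.25, limma adjusted p = 4.42e-06). Pla2g2f stood at 743 and 633 against 62 and 48 (3.63, SE 0.28), Pla2g4e at 484 and 551 against 69 and 46 (3.17, SE 0.40) and Pla2g4f at 142 and 128 against 35 and 21 (2.27, SE 0.43). These 4 genes were thus 4.82-fold to 15.6-fold higher in Krt14. Mgll was lower in Krt14, at 1541 and 1191 against 10500 and 9506 (-2.88, SE 0.18). Pla2g12a (-1.20), the carbonyl reductase gene Cbr1 (-1.04) and the prostaglandin reductase gene Ptgr2 (-0.82) were also lower. Hpgds, a prostaglandin D synthase gene, was the 1 gene of the 8 higher in Krt14 whose difference in LOF did not pass, at 48 and 111 in LOF against 106 and 104 (-0.52, SE 0.39). Of the 10 genes that fell with LOF, 7 (70%) were among the 8 that were higher in Krt14 than in Inv (87.5% of those): Alox5ap, Pla2g2f, Pla2g4e, Pla2g4f, Ptgfrn, Ptgr1 and Slco2a1. Over all genes tested, 45.9% of those lower in LOF were higher in Krt14, and these were 64% of the genes higher in Krt14. Of the 12 genes that rose with LOF, 4 (33.3%) were among the 5 lower in Krt14 (80% of those): Mgll, Pla2g12a, Ptgr2 and Zadh2. Over all genes the shares were 38.6% and 66.1%. No gene of the list passed in the same direction in both comparisons, which have no library in common. Over all genes tested this was also rare. Of the genes higher in LOF 1.21% were higher in Krt14 too, and of those lower in LOF 1.51% were lower in Krt14 too. With so few listed genes, nothing is read from their absence.

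**Figure D4:**
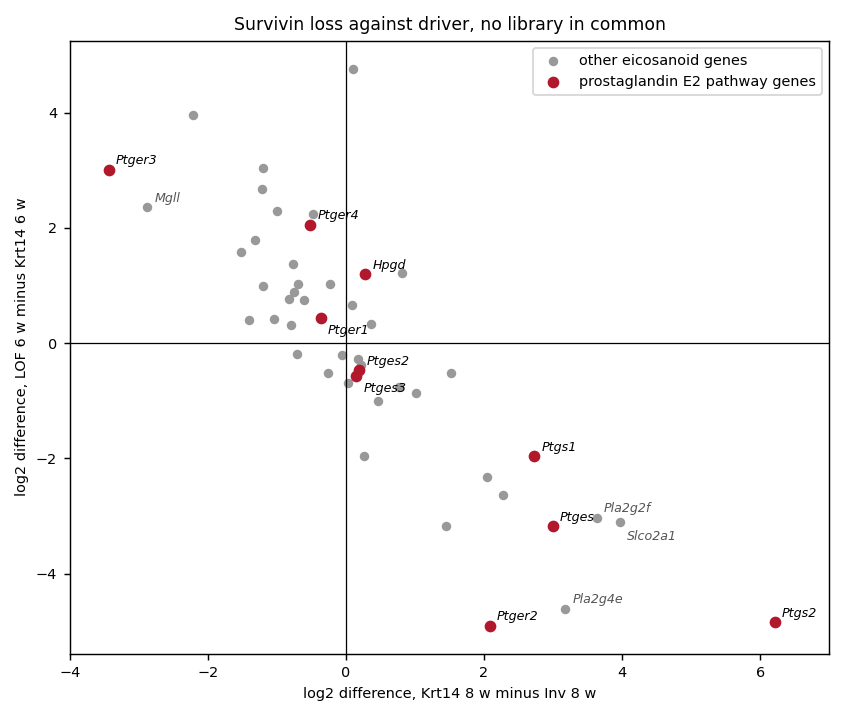
Log2 difference of LOF minus Krt14 at 6 weeks (vertical) against that of Krt14 minus Inv at 8 weeks (horizontal) for the 10 prostaglandin E2 pathway genes and the 39 other eicosanoid genes tested. Ptgs2 lies at 6.21 and -4.84 and Slco2a1 at 3.96 and -3.11, and Ptger3 lies in the opposite corner at -3.44 and 3.01.

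With Survivin GOF, 7 of the 39 fell and 2 rose against Inv, beside 8.4% lower and 6.87% higher among all genes (median 0.03, against -0.01 over all genes). The epidermal lipoxygenase gene Alox12e fell to 352 and 143 normalized counts in GOF, against 1616 and 1658 in Inv (log2 difference -2.86, SE 0.30, limma adjusted p = 0.0002). Mgll fell to 1530 and 1654, against 10500 and 9506 (-2.65, SE 0.18), the hydrolase gene Faah by 1.78 and the cytosolic phospholipase gene Pla2g4a by 1.13. Slco2a1 rose to 782 and 994 in GOF, against 328 and 308 in Inv (1.47, SE 0.25, limma adjusted p = 0.00357), still 5.60-fold below Krt14 at 8 weeks. In GOF against Krt14 at 8 weeks 10 fell and 3 rose, beside 12.5% and 15.2% of all genes, with Pla2g2f (-3.57), Slco2a1 (-2.49), Alox12e (-2.15) and Pla2g4f (-2.07) lower, and Pla2g12a (1.19) and the reductase gene Zadh2 (0.95) higher. The other gene that rose against Inv was the lipoxygenase gene Alox15, at 10 and 58 in GOF against 0 and 3. It was also the third that rose against Krt14. Alox15 met the filter on low values only through the 2 GOF libraries, where it is high. Its rises are therefore a description only. Between Krt14 at 8 weeks and at 6 weeks 2 rose and 1 fell, beside 4.02% and 0.855% of all genes: Mgll (2.49), the lipoxygenase gene Alox5, at 17 and 13 against 3 and 0, and Ptgfrn, a regulator of the prostaglandin F receptor (-0.48).

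**Figure D5:**
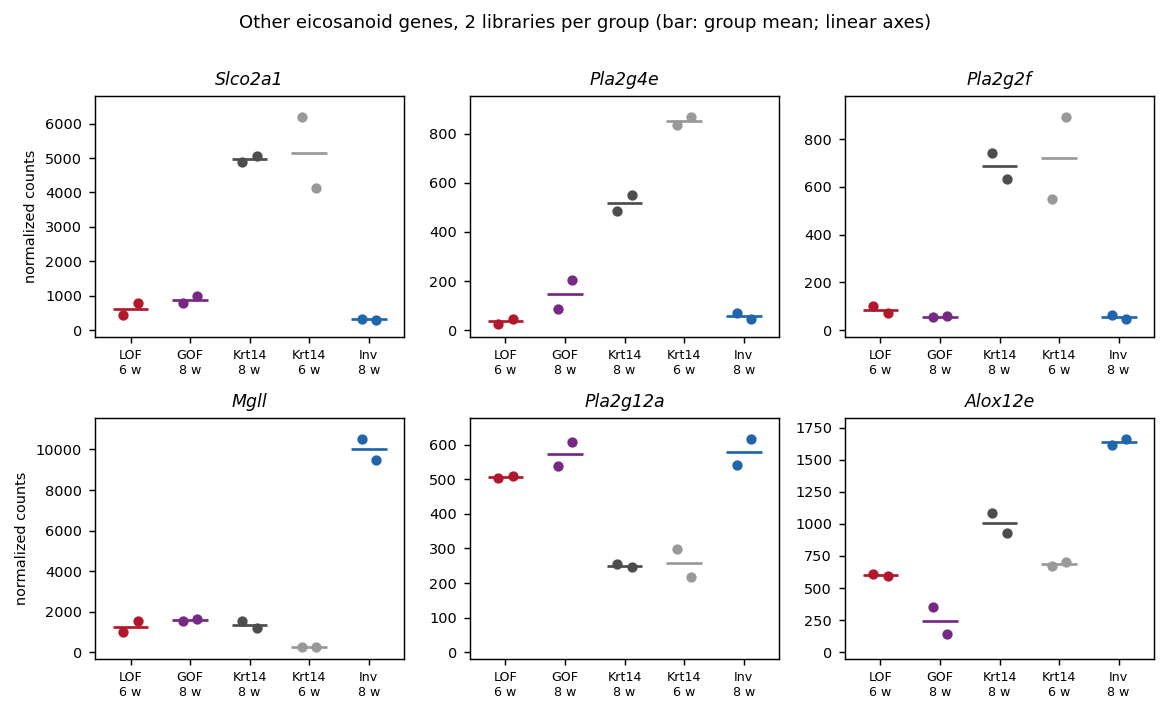
Normalized counts of 6 other eicosanoid genes in each of the 10 libraries, on linear axes that include 0, with a bar at each group mean. Slco2a1, Pla2g4e and Pla2g2f are high in the 4 Krt14 libraries without Survivin LOF, and Mgll is high in both Inv libraries.

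Over the 10 libraries, the genes most like Ptgs2 among 12085 with a mean of at least 50 were the cathepsin gene Ctsb, the mitotic phosphatase gene Cdc25b, the protocadherin gene Pcdh7, Lrp12 and the serine protease gene Prss22, with Pearson correlations of log2 values from 0.98 to 0.99. Prss22 stood at 77 and 305 in LOF against 2234 and 2759 in Krt14 at 6 weeks, and Ctsb at 3653 and 3815 against 8035 and 8729. Ptgs1 was seventh in that order, at 0.98. For Ptges they were Ier3, the kinase genes Mapkapk2 and Map2k3, Pxdc1 and Trim16, from 0.96 to 0.98. These are descriptions over 10 libraries that fall into 5 groups and share the deposited scaling.

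Markers of other skin cells differed between groups beside these results. The 6 neutrophil markers summed to 60 to 122 normalized counts in LOF against 1902 to 4659 in Krt14 at 6 weeks, almost wholly from S100a8 and S100a9, which stressed keratinocytes also make, while Cxcr2 was at 0 and 3 against 51 and 42, and Ly6g, Csf3r and Retnlg were at 0 in all 4 libraries. The 7 Langerhans cell and macrophage markers summed to 674 to 1116 in LOF against 236 to 251. In LOF that sum was mostly Cd74, at 402 and 751 against 79 and 55. Csf1r differed less, at 142 and 230 against 115 and 135, and no marker of this list had a lower mean in LOF. The 7 melanocyte markers summed to 2887 to 3043 in LOF against 885 to 925. The 6 fibroblast markers, mostly Dcn, summed to 18817 to 19188 against 1300 to 2673. Of the other fibroblast markers, Col1a2 followed Dcn, and Pdgfra and Lum had at most 25 in these libraries. Col1a1, at 117 and 93 against 218 and 75, and Col3a1, at 30 and 21 against 103 and 24, had lower means in LOF. The sums of the 7 sebaceous gland markers, mostly Scd1 and Fasn, moved in the direction of Mgll. They were 29858 to 45454 in LOF against 15188 to 15816 in Krt14 at 6 weeks, and 47128 to 62140 in GOF against 163254 to 165199 in Inv. In Krt14 at 8 weeks they were 33370 to 36282, against the same Inv values. Awat2 alone did not follow in that last comparison, at 54 and 31 in Krt14 against 46 and 41 in Inv. Beside the Ptgs2 difference between Krt14 and Inv at 8 weeks, the fibroblast markers summed to 1805 to 2441 in Krt14 against 17944 to 19983 in Inv. That sum was again mostly Dcn. Col1a2, Col3a1 and Lum also had lower means in Krt14. Col1a1, at 102 and 138 against 105 and 111, and Pdgfra, at 26 and 23 against 16 and 12, had higher ones. The neutrophil markers, again mostly S100a8 and S100a9, summed to 1486 to 2291 in Krt14 against 33 to 61 in Inv. In LOF and in Krt14 at 6 weeks the macrophage markers Adgre1 and Lyz2 were at 0. The part of these cells in the differences was not tested.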

How the data were processed

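PolyA RNA of FACS-isolated SmoM2-YFP epidermal cells was sequenced in 10 libraries. The submitters' processing notes name STAR, HTSeq and GRCm38 (mm10). Their versions, and whether counting used strand, were not given in the sources used here. A single table deposited by the authors holds a normalized score per gene: whole numbers whose columns sum to between 20011195 and 20014054. In each library, 99.1% to 99.9% of values below 20000 are whole reads multiplied by a library-specific step of 2.25 to 2.60 and rounded up, which gives 7693144 to 8870759 reads. Being scaled and rounded, the values were not treated as counts, and limma-voom on the recovered reads served as an alternative.

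The 21995 genes reaching 10 in 2 or more libraries were taken to log2(value + 1), and limma 3.58.1 (R 4.3.3) fitted all 5 groups together (intensity trend, 5 residual degrees of freedom), two-sided, with Benjamini-Hochberg adjustment over genes and a threshold of 0.05. Fold differences understate low genes on this scale, and folds printed are ratios of group means. With 2 libraries against 2, an exact permutation test cannot go below p = 0.333. The 2 libraries of a group have different sample names, but no label states that they come from different animals. The p-values therefore reflect only library spread, whose source is not given and which may be technical in part. The GOF libraries differed in Xist, at 7589 and 56185, and in Ddx3y, at 3328 and 970. The fit was tested on data simulated with the same spread in all groups, so that test does not cover groups of unequal spread such as GOF.

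Exon lengths, overlaps and coordinates came from GENCODE M21 (GRCm38), which matched 49326 of the IDs, and promoters from RefSeq, which held 9 of the 10 members. Other eicosanoid genes named are up to 4 rises and 4 falls per comparison among passing genes with a mean of at least 50. Likeness was the Pearson correlation over 10 libraries for the 2 members of widest range with a mean of at least 50. Genes in counts of shared calls, Hpgds, Alox15, Alox5 and the overlapping genes were named after their values were seen. The members and lists were chosen with earlier results of these data known. Alternatives are given at the end. An item that bears on Ptger1 is not reported here.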

Additional observations from a re-analysis of the deposited data

How the results depend on the processing

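Counts of calls kept within 1.5 times under the other added values, filters and scalings except as follows. Fitting only the 2 groups compared gave 258 genes, 0 members and 2 other eicosanoid genes for GOF against Inv, 8, 0 and 0 for Krt14 at 8 against 6 weeks, and 2660 genes and 5 members for GOF against Krt14 at 8 weeks. For Krt14 at 8 against 6 weeks, members numbered 2 with an added value of 5 and 2 with voom, all genes 536 with no filter, 468 with quantile normalization and 701 with voom, and other eicosanoid genes 5 with median-of-ratios rescaling, 1 with quantile normalization and 5 with the replicate block. Titles number the libraries 1 and 2 in each group, and same-numbered libraries did not deviate together (correlations -0.0542 to -0.00759), so the block is no pairing. It changed no other count by more than 1.5 times.

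Leaving out 1 library gave 3759 to 5239 genes, 8 members and 13 to 17 other genes for LOF, and 913 to 6198, 1 to 5 and 3 to 14 for GOF against Inv. It gave 1897 to 2253, 4 and 9 to 11 for Krt14 against Inv, 77 to 829, 0 and 1 to 3 for 8 against 6 weeks, and 3308 to 7293, 6 to 8 and 10 to 15 for GOF against Krt14 at 8 weeks. A lone library in a group is assumed to vary like the others.

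The Xist covariate, added after seeing the data, rests mostly on the 2 GOF libraries. It gave 941 genes, 3 members and 6 others for LOF, 40, 0 and 0 for GOF against Inv, 1780 genes and 5 others for 8 against 6 weeks, and 202, 1 and 2 for GOF against Krt14. Under it Hpgd had the opposite sign in LOF (-0.56), as had Ptges (-0.21) and Ptger1 (-0.61) in GOF against Inv and Ptger1 (-0.60) in GOF against Krt14, none of which passed. The cause was not tested. For 8 against 6 weeks the share of calls that were higher was 82.5%, and 67.5% after quantile normalization and 68.9% with voom.

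Dividing by the longest transcript in place of all exons moved 28 of 50 group means per kilobase by more than their SD, all upward. In LOF, Krt14 at 8 weeks, Krt14 at 6 weeks and Inv they became 8.42, 9.37, 6.18 and 12.1 for Ptger1. In LOF, GOF, Krt14 at 8 weeks, Krt14 at 6 weeks and Inv they became 58.2, 34.2, 216, 228 and 32.6 for Ptgs1, 1987, 1526, 2276, 2949 and 2056 for Ptges3, 10.8, 15.1, 1.26, 1.12 and 15.9 for Ptger3, and 444, 109, 92.4, 106 and 131 for Ptger4. For Ptger2 they became 4.48 in Krt14 at 8 weeks, 19.7 in Krt14 at 6 weeks and 0.814 in Inv, and for Ptgs2 471 in Krt14 at 8 weeks. Ptges3 kept the first rank in all groups.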
